A study of Mus musculus with 5 samples.

Results

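The colony-stimulating factors and their receptors were followed in MC38 tumors through 8 genes chosen by name out of 33696 genes in the expression matrices. They are the ligands Csf1, Il34, Csf2, and Csf3 and the receptor chains Csf1r, Csf2ra, Csf2rb, and Csf3r, and all 8 were detected. MC38 is a mouse colorectal adenocarcinoma line, and tumors were grown by s.c. implantation of cells into male WT C57BL/6J mice aged 8 to 10 weeks. Mice received 3 i.p. antibody doses between days 3 and 9, a single vehicle or inhibitor treatment followed on day 12, and tumors were taken on day 15. The labels and the sequencing methods count the day of harvest from implantation, but the study's outline of the MC38 experiment counts from enrollment by tumor volume, so where the day count starts is not settled here. The isotype group received control antibodies and then DPBS as vehicle, and the CPI group received anti-CTLA4 and anti–PD-1 and then vehicle. The isotype + ABT-317 and CPI + ABT-317 groups received the same antibodies followed by 20 mg/kg ABT-317, an inhibitor of the kinase JAK1. Live CD45+ and CD45- cells were sorted and mixed 1:1, so shares of cells do not reflect the whole tumor. All 4 treatments were pooled by hashtag antibodies into each of 2 droplet reactions, and the hashtags were read here for treatment, not for single mice. Thus n = 2 reactions per treatment, and the p-values below measure the spread between reactions and not between animals.

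CSF1 and IL-34 are separate ligands of a shared receptor, CSF1R (CD115), a tyrosine kinase on which most tissue macrophages depend. GM-CSF, encoded by Csf2, is made mainly by activated lymphocytes and stromal cells, and binds a specific alpha chain (Csf2ra) paired with the common beta chain (Csf2rb), which signals through JAK2 and STAT5. G-CSF, encoded by Csf3, acts through Csf3r, chiefly on neutrophils. Mice also carry Csf2rb2, a close copy of Csf2rb that serves the IL-3 receptor, and reads from the 2 copies can be hard to tell apart, so it was read beside Csf2rb.

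Of the cells that passed the filters, 17124 and 13931 carried exactly 1 treatment hashtag, with medians of 7538 and 9471 UMIs (unique molecular identifiers, a count of captured transcripts). These 31055 cells were used, and the clustering of all barcodes that passed the filters, doublets included, gave 17 clusters. Classes were named from marker lists (the suffix "-like" marks this), which covered 10192 cells, while 20863 cells stayed in clusters known by number. The reactions shared 1068 barcodes among the cells that passed. Cells from CPI mice were fewer (1820 and 1096, against 9100 and 8704 for isotype) and shallower, since 88.4% and 87.9% of them had under 2500 genes, against 58.9% and 53.0% in isotype, and the upper component of the CPI hashtag had the lowest mean of the 4 hashtags in both reactions, at 195 and 139 UMIs. Its counts had no separate upper peak in either reaction, while those of each other treatment had 1 in both, in a histogram with bins of 0.5 natural log units and peaks of at least 100 barcodes, settings chosen after the data were seen. Which cells are CPI is therefore less certain than for the other treatments, and this holds for every CPI value below. Unnamed cluster 1 had the deepest cells, with medians of 24568 and 30370 UMIs. Clusters 1 and 2 had 0.485 to 2.25 CPM of Ptprc, the gene of CD45, and 0.670 to 0.815 CPM of a keratin list, and 4 Y-linked genes summed to at most 0.654 CPM against 56.0 to 385 CPM in named classes. These clusters took no name from the marker lists and are given by number, and whether they hold MC38 tumor cells was not tested. The neutrophil-like class is mixed, since its macrophage list (14865 and 24762 CPM) was as high as its neutrophil list (16434 and 13982 CPM).

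The sequences that carry the readouts are the antibody tag for the CSF1R protein, used below beside Csf1r RNA, and the promoters of the CSF1 gene and of the Csf2rb copy, shown as a window without and a window with a STAT motif in genes whose values by treatment are given below. The promoters are from RefSeq (GRCm38) and cover the 250 bases before the start, with capitals for a match to TTCNNNGAA, the motif of STAT factors.
CD115 antibody tag: TTCCGTTGTTGTGAG
Csf1, chr3:107760470-107760719, minus strand: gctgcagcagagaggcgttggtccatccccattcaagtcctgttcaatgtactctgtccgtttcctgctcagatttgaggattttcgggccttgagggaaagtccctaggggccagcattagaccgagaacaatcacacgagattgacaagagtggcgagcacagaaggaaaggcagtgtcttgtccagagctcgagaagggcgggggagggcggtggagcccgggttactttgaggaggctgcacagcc
Csf2rb2, chr15:78305722-78305971, minus strand: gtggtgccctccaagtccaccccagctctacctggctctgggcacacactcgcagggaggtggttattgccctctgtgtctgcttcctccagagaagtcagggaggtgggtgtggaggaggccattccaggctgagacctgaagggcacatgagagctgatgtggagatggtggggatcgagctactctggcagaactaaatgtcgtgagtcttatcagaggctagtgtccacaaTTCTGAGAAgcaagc
The Csf2rb2 window held 1 match, and neither strand of the Csf1, Csf2, Csf2ra, and Csf3r windows held TTCNNNGAA or TGANTCA, the AP-1 motif. These motifs stood in 7.02% and 6.75% of 32851 promoters of the same length, and a match of letters is a description only. In GRCm38, Csf2 and Csf3 lie on the same chromosome (11:54247271-54249667 and 11:98701263-98703629), and Csf2rb (15:78325752-78353847) adjoins Csf2rb2 (15:78282507-78305721). Csf1 lies at 3:107741048-107760469, Il34 at 8:110741829-110805924, Csf2ra at 19:61223957-61228429, and Csf3r at 4:126024550-126044440.

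Csf1 was found in T cell, stromal, and unnamed classes. Its levels are given as CPM, the UMIs of the gene scaled to 1000000 UMIs of all genes, summed over the cells of a class in a reaction, with exact 95% Poisson intervals that cover counting error only. CD8 T cell-like cells had 211 (167 to 264) and 281 CPM (211 to 366) in reactions 1 and 2, from 131 UMIs in 436 cells, and unnamed cluster 8 had 239 and 234 CPM from 2269 UMIs. The ranges of these classes overlapped, and over all treatments both lay above every other class in both reactions. Most CD8 T cell-like cells came from CPI mice (258 of 282 and 131 of 154). In isotype cells alone, among classes with at least 10 cells, they had 249.01 and 215 CPM from 6 and 4 UMIs, and cluster 8 had 208 and 147 CPM, the latter close to the 145 CPM of cluster 3. Clusters 5 (121 and 150 CPM) and 3 (116 and 143 CPM) came next and overlapped with each other. Fibroblast-like cells had 108 and 97.2 CPM and clusters 1 and 2 had 97.7 and 99.8 CPM and 95.05 and 95.2 CPM. Pericyte or smooth muscle cell-like cells had 49.7 and 58.7 CPM. Macrophage-like cells, which hold the receptor, were low in Csf1, at 16.7 and 6.95 CPM. The same order held after each cell was thinned to 1000 UMIs, where 17.0% of CD8 T cell-like cells in either reaction carried a Csf1 UMI (20.9% and 21.4% unthinned), against 9.62% and 9.52% in cluster 1 and 1.91% and 0.906% in macrophage-like cells (6.05% and 2.84% unthinned). Neutrophil-like and conventional CD4 T cell-like values (150 and 76.0 CPM, 139 and 58.6 CPM) rested on 32 and 8 UMIs and their reactions lay far apart.

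Because clusters 1 and 2 held the most RNA, most Csf1 UMIs came from them whatever their level. Cluster 1 gave 50.1% and 60.5% of all Csf1 UMIs and cluster 2 gave 24.96% and 28.7%. In the CPI cells, fibroblast-like cells gave the most, 45.5% and 46.3%, beside 41.9% and 45.5% of the CPI cells, and CD8 T cell-like cells gave 8.70% and 8.64%.

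Il34, the other CSF1R ligand, was highest in pericyte or smooth muscle cell-like cells at 199 and 165 CPM (139 UMIs in 174 cells), and in cluster 8 at 157 and 187 CPM. Most cells of the former class came from CPI mice (77 of 102 and 47 of 72), and in isotype cells alone cluster 8 had the higher values, 164 and 200.03 CPM against 116 and 98.4 CPM. Over all treatments these overlapped, and both lay above cluster 9 (86.4 and 66.3 CPM), cluster 3 (70.9 and 79.2 CPM), and cluster 5 (69.1 and 67.8 CPM). Cluster 2 had 57.1 and 61.0 CPM and cluster 1 had 47.4 and 51.4 CPM. Fibroblast-like cells had 22.5 and 11.5 CPM, well under the pericyte or smooth muscle cell-like class in both reactions. After thinning, 20.6% and 25.7% of pericyte or smooth muscle cell-like cells had an Il34 UMI, against 1.99% and 1.12% of fibroblast-like cells (unthinned, 50.0% and 48.6% of pericyte or smooth muscle cell-like cells). In CPI cells, pericyte or smooth muscle cell-like cells gave 23.6% and 33.9% of Il34 UMIs from 4.23% and 4.29% of the cells.

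Csf2 was sparse, with 122 UMIs in all cells used, and its highest levels were in T cells. Conventional CD4 T cell-like cells had 69.7 and 87.8 CPM, from 6 UMIs in 6 cells out of 46. Their mean level was far higher with treatments called by the leading hashtag and at Leiden resolution 1.0 (values in the last section). All 6 cells were from CPI mice, as were 23 of 24 and 20 of 22 cells of the class. CD8 T cell-like cells had 13.7 CPM in reaction 1 and 104 CPM in reaction 2, from 5 and 20 UMIs. In reaction 2 all 20 came from 6 of 131 CPI cells, while in reaction 1 the CPI cells had 3 UMIs in 258 cells and the isotype cells 2 UMIs in 1 of 17 cells. The reactions therefore did not give like levels, and a difference between treatments was not detectable at this depth. Fibroblast-like cells had 2.01 and 2.25 CPM, and the 16 UMIs behind these came from 5 cells. All 5 were CPI cells, as were 762 of 889 and 499 of 561 cells of the class. With any number of hashtags kept, fibroblast-like cells held the most Csf2 UMIs, 44 of 123 and 32 of 135. Conventional CD4 T cell-like cells then held 13 and 23. Cluster 2 had 0.192 and 0.262 CPM. Cluster 1 had a level as low, 0.118 and 0.165 CPM, but 31 UMIs. These were 0 and 11 UMIs in isotype, 0 and 0 in CPI, 1 and 1 in isotype + ABT-317, and 11 and 7 in CPI + ABT-317, the last from 9 and 3 cells. A count of 0 allows up to 0.0908 CPM in isotype reaction 1 but 3.02 and 4.02 CPM in CPI, against 0.385 and 0.241 CPM measured in CPI + ABT-317. The gene was too low there for the test. With no filter on low counts, CPI + ABT-317 against isotype + ABT-317 gave a log2 fold change of 3.30 ± 0.96 (edgeR adjusted p = 0.0253), from 18 against 2 UMIs. It was not called in the 3 fits without 1 library in which the gene passed the filter, where the log2 fold change was 3.28 to 3.61 and edgeR adjusted p was 0.303 to 0.527.

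Csf3 was as sparse, with 117 UMIs. The neutrophil-like value was 132 CPM in reaction 1 and 10.9 CPM in reaction 2, and 21 of its 23 UMIs came from 2 of 11 CPI + ABT-317 cells in reaction 1. Macrophage-like cells had 1.44 and 2.20 CPM from 49 UMIs, and Arg1-positive myeloid cell-like cells had 1.48 and 2.45 CPM. Outside myeloid cells, 13 UMIs in cluster 2 came from 2 of 692 CPI + ABT-317 cells of reaction 1. Csf3 thus sat in few cells wherever it was high.

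**Figure D1:**
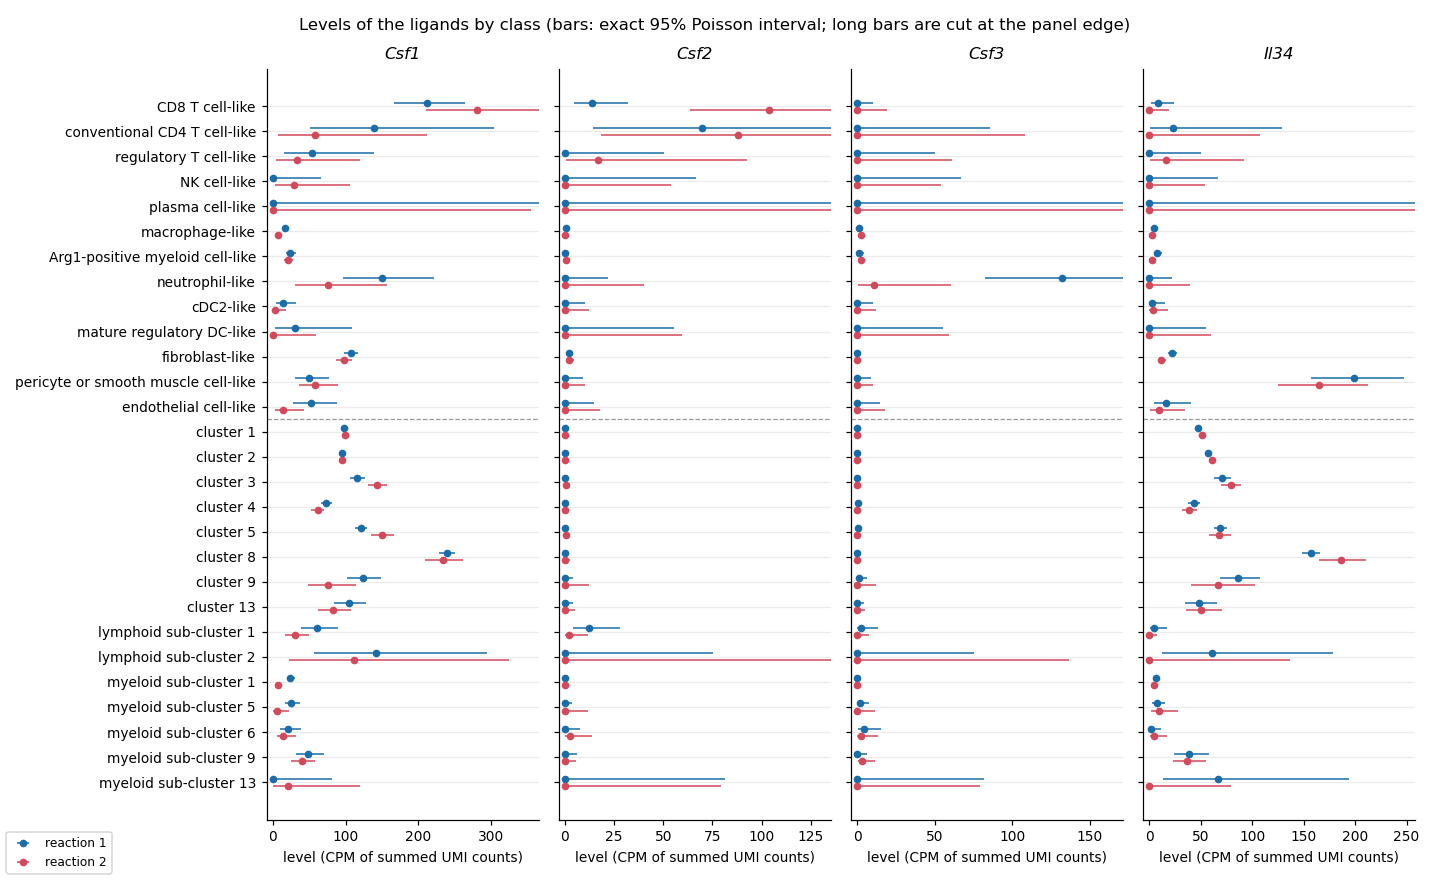
Level of each ligand (CPM of summed UMI counts, x axis) by class (y axis) in reaction 1 (blue) and reaction 2 (red), with exact 95% Poisson intervals as bars; classes under the dashed line are unnamed clusters. Csf1 is highest in CD8 T cell-like cells and cluster 8 (211 to 281 CPM), Il34 in pericyte or smooth muscle cell-like cells and cluster 8 (157 to 199 CPM), and the Csf2 and Csf3 bars are wide.

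Csf1r marked myeloid cells. Macrophage-like cells had 439 (427 to 451) and 446 CPM (435 to 457), from 11639 UMIs. Among the other myeloid sub-clusters, number 13, led by the osteoclast-type genes Acp5, Ctsk, and Ocstamp, had 1084 and 709 CPM but only 13 cells, and number 5, led by Negr1 and Cadm1, had 704 and 806 CPM from 939 UMIs in 546 cells. These lay above the macrophage-like class in both reactions. Sub-cluster 1 (led by Fcrls and Stab1) had 447 and 481 CPM, and sub-cluster 6 (led by Lyz1 and Ear2) had 419 and 416 CPM. The mixed neutrophil-like class had 305 and 456 CPM, from 51 and 42 UMIs. Arg1-positive myeloid cell-like cells, at 290 and 308 CPM, cDC2-like cells, at 184 and 176 CPM, and mature regulatory DC-like cells, at 75.0 and 64.6 CPM, followed. The last values rested on 5 and 4 UMIs, and their intervals (24.4 to 175 and 17.6 to 165 CPM) overlapped those of the cDC2-like class (143 to 233 and 132 to 230 CPM). After thinning, 35.6% and 35.7% of macrophage-like cells and 46.4% and 55.1% of sub-cluster 5 cells had a Csf1r UMI. Outside the myeloid sub-clusters, lymphoid sub-cluster 1 had 294 and 331 CPM of Csf1r, with a macrophage list of 19897 and 23050 CPM. Cluster 9 had 246 and 239 CPM, with a macrophage list of 9361 and 10253.5 CPM.

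Low Csf1r values outside myeloid cells were read beside macrophage RNA. The ratio of Csf1r to the complement genes C1qa, C1qb, and C1qc, which mark macrophages, was 35.0 and 28.2 Csf1r UMIs per 1000 C1q UMIs in macrophage-like cells. It was 31.8 and 32.5 in cluster 1, where Csf1r was at 1.25 and 0.572 CPM. It was 41.8 and 49.9 in fibroblast-like cells (25.2 and 22.5 CPM) and 50.4 and 33.3 in CD8 T cell-like cells (38.5 and 15.6 CPM). These ratios mix treatments, since most macrophage-like cells were isotype cells and most cells of the latter 2 classes were CPI cells. In CPI cells of the whole macrophage-like cluster, Csf1r was at 339 and 448 CPM and C1q at 4394 and 6235 CPM. In CPI fibroblast-like cells they were at 15.0 and 14.9 CPM and 271 and 178 CPM. In CPI CD8 T cell-like cells they were at 30.1 and 5.94 CPM and 752 and 398 CPM. The share of CD8 T cell-like cells with a Csf1r UMI after thinning was 3.40% and 2.13%, and the part of background RNA in these low values was not tested.

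Antibody to CD115 did not follow the RNA. It was scaled to the mean of 9 isotype-control antibodies in the same cells, and the ratio ran from 0.701 to 1.20 over all classes and reactions. Macrophage-like cells had ratios of 0.804 and 0.826, and cluster 1 had 0.875 and 0.842. The highest ratio, 1.20, was in sub-cluster 6 of reaction 2, and the same sub-cluster had 0.841 in reaction 1. The antibody therefore did not separate classes with Csf1r RNA from those without it.

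**Figure D2:**
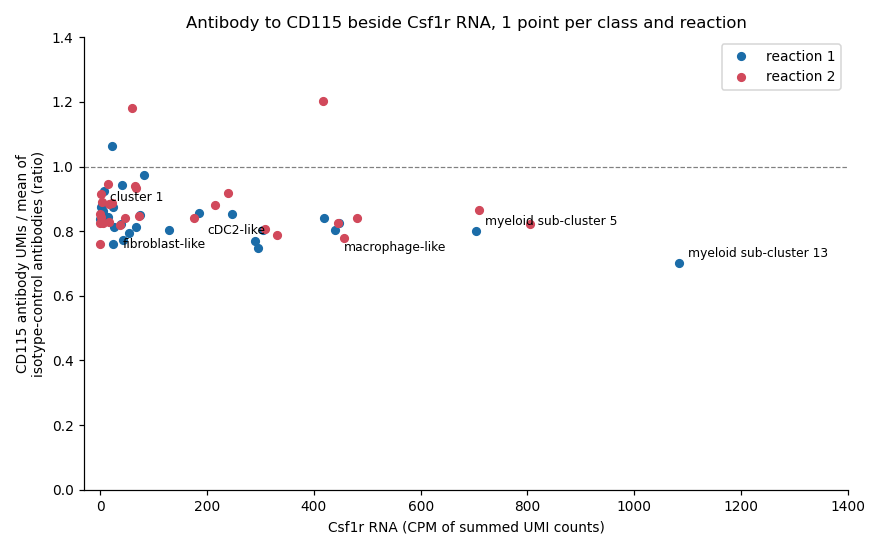
CD115 antibody UMIs divided by the mean of isotype-control antibodies (ratio, y axis) against Csf1r RNA (CPM of summed UMI counts, x axis), 1 point per class and reaction; the dashed line is a ratio of 1. Classes with Csf1r from under 2 CPM (cluster 1) to 1084 CPM (myeloid sub-cluster 13) share ratios of 0.701 to 1.20.

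The chains of the GM-CSF receptor had different distributions. Csf2ra, the ligand-specific chain, was found across myeloid cells, with 168 and 216 CPM in sub-cluster 6, 179 and 203 CPM in sub-cluster 5, 186 and 185 CPM in neutrophil-like cells (48 UMIs, and a mean of 68.2 CPM at Leiden resolution 1.0), 143 and 169 CPM in sub-cluster 1, 143 and 165 CPM in macrophage-like cells, and 130 and 150 CPM in cDC2-like cells. Arg1-positive myeloid cell-like cells had less, 75.6 and 86.6 CPM, and CD8 T cell-like cells had 8.24 and 5.20 CPM. Sub-cluster 1 in reaction 2 reached the value of sub-cluster 6 in reaction 1, and the neutrophil-like intervals (126 to 264 and 108 to 295 CPM) covered the macrophage-like values.

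Csf2rb, the signaling chain, was instead higher in cDC2-like than in macrophage-like cells over all treatments. The cDC2-like cells had 189 and 218 CPM (137 UMIs in 157 cells) and mature regulatory DC-like cells had 240 and 145 CPM, the latter from 25 UMIs. Neutrophil-like cells had 174 CPM in both reactions, sub-cluster 6 had 165 and 164 CPM, and sub-cluster 5 had 117 and 133 CPM. Macrophage-like cells had 63.5 and 69.6 CPM (1758 UMIs), below the cDC2-like class in both reactions. Most cDC2-like cells were from isotype mice (72 of 85 and 64 of 72), where the order was the same, at 182 and 204 CPM against 58.9 and 63.3 CPM. In CPI cells macrophage-like cells had 166 and 352 CPM, which overlapped the cDC2-like values of 398 and 329 CPM from 9 and 7 UMIs. After thinning, 19.0% and 17.1% of cDC2-like cells had a Csf2rb UMI against 6.55% and 7.06% of macrophage-like cells (56.5% and 45.8% against 19.8% and 24.4% unthinned).

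Endothelial cell-like cells also carried Csf2rb, at 48.0 and 43.6 CPM, from 12 and 9 UMIs, with 100 and 265 UMIs per 1000 C1q UMIs. The ratio was 5.06 and 4.40 in macrophage-like cells, but most endothelial cell-like cells came from CPI mice (53 of 61 and 40 of 49). In CPI cells alone it was 186 and 300.0 UMIs per 1000 C1q UMIs in the endothelial cell-like class, from 11 and 6 Csf2rb UMIs, against 37.3 and 37.9 in the whole macrophage-like cluster. Fibroblast-like cells had 3.79 and 3.85 CPM. The copy Csf2rb2 was at 70.4 and 71.7 CPM in cDC2-like cells over all treatments, with 48.0 and 29.1 CPM in endothelial cell-like and 25.2 and 26.3 CPM in macrophage-like cells.

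Csf3r, the G-CSF receptor, was highest in neutrophil-like cells but uneven, with 59.9 CPM (28.7 to 110) in reaction 1 and 282 CPM (184 to 414) in reaction 2 from 36 UMIs in all. Sub-clusters 5 and 6 had 36.0 and 41.2 CPM and 37.7 and 39.2 CPM, and macrophage-like cells had 21.0 and 19.7 CPM from 533 UMIs. Fibroblast-like cells had 2.23 and 0.962 CPM. The Csf3r values of the first class differ by reaction beyond their counting intervals.

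**Figure D3:**
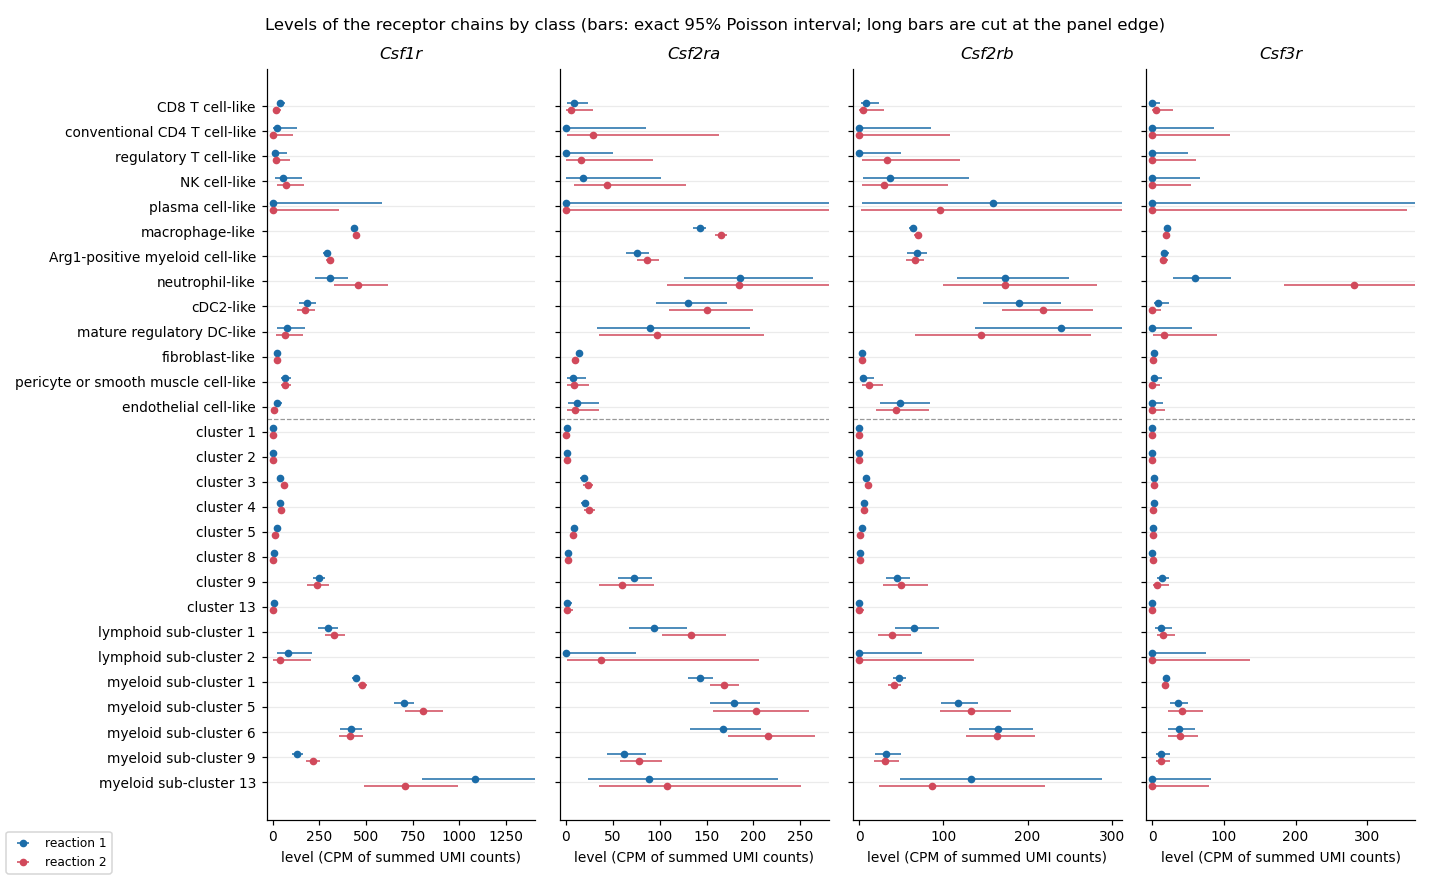
Level of each receptor chain (CPM of summed UMI counts, x axis) by class (y axis) in reaction 1 (blue) and reaction 2 (red), with exact 95% Poisson intervals as bars; classes under the dashed line are unnamed clusters. Csf1r and Csf2ra are spread over the myeloid classes, and Csf2rb, over all treatments, is higher in cDC2-like cells (189 and 218 CPM) than in macrophage-like cells (63.5 and 69.6 CPM).

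The next comparisons ask whether CPI, and ABT-317 after it, altered these genes within a class. UMIs were summed by treatment and reaction and tested across all genes of a class with edgeR, with adjustment by Benjamini-Hochberg. Among whole clusters, only the whole macrophage-like cluster (cluster 0, which joins the macrophage-like cells with neighboring myeloid sub-clusters), cluster 1, and cluster 3 had 10 cells in all 8 sums. In these, 16 tests of members were possible. Sub-cluster 0, a part of the first, also had 10 cells in all 8 sums, and its tests are not among the 16. For CPI against isotype, 2 of the 16 were called, beside 6.19%, 5.23%, and 0% of all genes in these 3 classes, where 2, 2, and 0 members had an unadjusted p under 0.05. In the other 3 comparisons none was called by edgeR without the reaction as a block. These were CPI + ABT-317 against CPI, isotype + ABT-317 against isotype, and CPI + ABT-317 against isotype + ABT-317. With the block 1, 1, and 2 were called, in this order. In these 3 comparisons, respectively, 1, 0, and 1 members had an unadjusted p under 0.05 in the whole macrophage-like cluster and again in cluster 1, and 0 in cluster 3, and DESeq2 called 1 member, in CPI + ABT-317 against CPI. In the same order edgeR called 1.87%, 0.0108%, and 1.86% of all genes in the whole macrophage-like cluster, 1.8%, 0.0216%, and 1.71% in cluster 1, and 0% in cluster 3. With the reaction as a block edgeR called many more genes, 680, 146, and 674 of 9291 in the whole macrophage-like cluster and 1344, 1853, and 3737 of 13917 in cluster 1, and for CPI against isotype 1212 and 1899, against which the values with the block below are read.

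Csf2rb was higher with CPI in the whole macrophage-like cluster. Its levels were 58.5 and 59.5 CPM in isotype, 164 and 236 CPM in CPI (29 UMIs in each reaction, from 110 and 58 cells), 49.95 and 72.9 CPM in isotype + ABT-317, and 98.9 and 102 CPM in CPI + ABT-317. Both CPI values lay above all others, and the CPI + ABT-317 values lay above the isotype and isotype + ABT-317 values. For CPI against isotype the log2 fold change was 1.58 ± 0.26 (SE; edgeR adjusted p = 0.00215), beside 6.19% of 9291 genes called in this comparison and 3.7% called higher. Without CPI reaction 2 it was 1.28 (edgeR adjusted p = 0.084), so the call rests on that library, and with treatments called by the leading hashtag it was 0.90 (edgeR adjusted p = 0.148). Between CPI + ABT-317 and CPI it was -0.82 ± 0.26 (edgeR adjusted p = 0.134, or 0.0112 with the reaction as a block). Between the ABT-317 groups, CPI + ABT-317 against isotype + ABT-317, it was 0.77 ± 0.21 (edgeR adjusted p = 0.0985, or 0.00013 with the block). For isotype + ABT-317 against isotype it was -0.00. The interaction of CPI and ABT-317 was -0.82 ± 0.33 (edgeR adjusted p = 0.312, or 0.0519 with the block, with 0.463% of genes called and 526 of 9291 with the block), so a different effect of CPI after ABT-317 was not shown.

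The makeup of the cluster moved with CPI too. The macrophage list summed to 24825 and 30260 CPM in isotype and 12923 and 14680 CPM in CPI. The cDC2 list, markers of a class with high Csf2rb, was at 34.4 and 37.1 CPM in isotype and 130 and 155 CPM in CPI. Of its 8 genes, Clec10a, Mgl2, and Ifi205 (3 genes) were higher in both CPI reactions, while Cd209a and Cd7 had 0 UMIs in CPI. A monocyte list went from 677 and 585 CPM in isotype to 989.7 and 1003 CPM in CPI. Sub-cluster 6, which had 165 and 164 CPM of Csf2rb, held 13.6% and 20.7% of the CPI cells of the whole macrophage-like cluster and 0.0463% and 0.0937% of its isotype cells. Over all clusters it had 225 and 163 CPI cells, of which 15 and 12 were among the 110 and 58 CPI cells tested here. Its CPI cells had a macrophage list of 19919 and 22025 CPM, so the comparison leaves out many CPI cells with macrophage RNA. In the whole macrophage-like cluster, median UMIs were 3083 and 3722 in isotype and 1404.5 and 1959 in CPI. Among cells with fewer than 2500 genes the log2 fold change was 1.58 again (edgeR adjusted p = 0.00431). This is an upper limit only and does not match depth between treatments. The parts of depth and of the cDC2 and monocyte genes in the difference were not tested. The difference was as large within sub-cluster 0, led by Il10, Tnfsf9, and Cd14. Its CPI cells held 20 and 26 of the 29 and 29 Csf2rb UMIs counted above, and makeup and depth moved there too. The macrophage list summed to 26847 and 32012 CPM in isotype and 14251 and 14879 CPM in CPI. Median UMIs were 3437.5 and 4107 in isotype and 1904.5 and 2331 in CPI. The same 3 cDC2 genes were higher in both CPI reactions. The cDC2 list summed to 52.8 and 52.3 CPM in isotype and 189 and 161 CPM in CPI, and the monocyte list to 893 and 835 CPM and 1091 and 1432 CPM. There Csf2rb was at 66.8 and 72.5 CPM in isotype, 210 and 348 CPM in CPI (20 and 26 UMIs), 85.6 and 120 CPM in isotype + ABT-317, and 153 and 128 CPM in CPI + ABT-317. The log2 fold change for CPI against isotype was 1.86 ± 0.29 (edgeR adjusted p = 0.000287, with 6.37% of 4960 genes called and 4.19% called higher), and the interaction was -1.47 (edgeR adjusted p = 0.179, or 0.0240 with the block, with 0.141% called and 78 of 4960 with the block). In CPI cells as a whole, sub-cluster 6 gave 45.9% and 47.7% of the Csf2rb UMIs.

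The other receptor chains in the whole macrophage-like cluster did not pass the test. Csf2ra was at 131 and 157 CPM in isotype and 119 and 147 CPM in CPI (log2 fold change -0.29 ± 0.25, edgeR adjusted p = 0.567), and the treatments overlapped. Csf1r was at 426 and 434 CPM in isotype and 339 and 448 CPM in CPI (log2 fold change -0.29 ± 0.19, edgeR adjusted p = 0.417). Csf2rb2 was at 23.0 CPM in both isotype reactions and 50.9 and 48.9 CPM in CPI, with no overlap, but from 9 and 6 UMIs (log2 fold change 0.98 ± 0.37, edgeR adjusted p = 0.138). In the ABT-317 groups, CPI + ABT-317 against isotype + ABT-317, Csf2rb2 was at 37.9 and 42.5 CPM against 20.8 and 26.6 CPM (log2 fold change 0.82 ± 0.24, edgeR adjusted p = 0.117, or 0.018 with the block). Csf3r was at 28.3 CPM in CPI reaction 1 and had 0 UMIs in reaction 2, which allows up to 24.5 CPM, against 20.3 and 19.1 CPM in isotype.

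**Figure D4:**
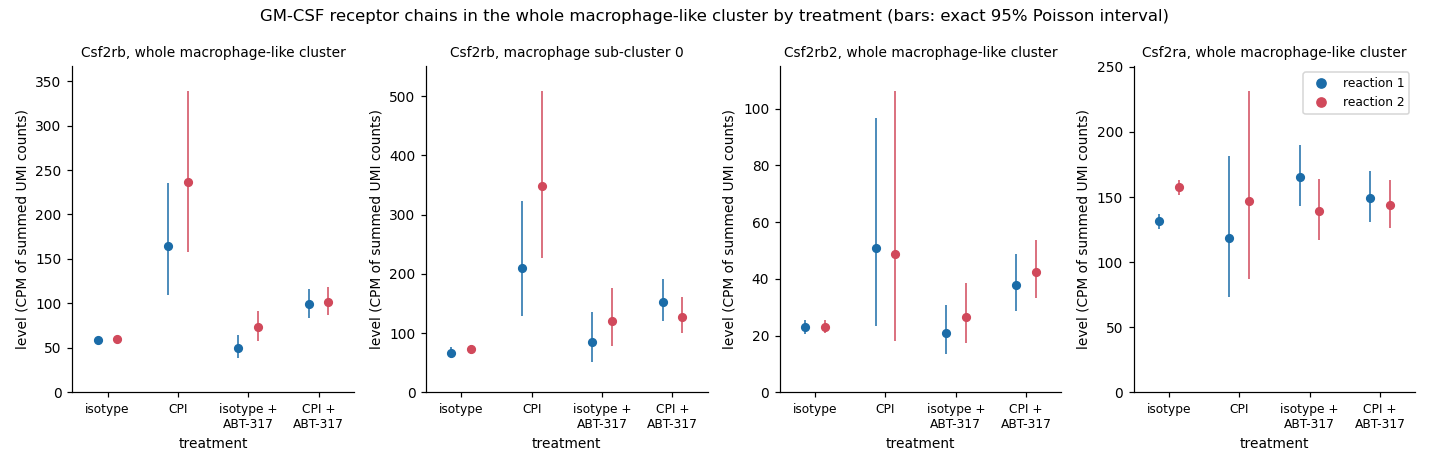
Level (CPM of summed UMI counts, y axis) of Csf2rb in the whole macrophage-like cluster and in its sub-cluster 0, and of Csf2rb2 and Csf2ra in the whole cluster, by treatment (x axis) in reaction 1 (blue) and reaction 2 (red), with exact 95% Poisson intervals as bars. The Csf2rb values of CPI (164 and 236 CPM in the whole cluster) lie above those of every other treatment, while Csf2ra overlaps between treatments.

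Among the ligands, Csf3 had the larger log2 fold change for CPI against isotype, in the whole macrophage-like cluster, but did not pass the test. It was at 0.954 and 1.47 CPM in isotype and 11.3 and 8.15 CPM in CPI, the latter from 2 and 1 UMIs (log2 fold change 2.85 ± 1.23, edgeR adjusted p = 0.190, DESeq2 adjusted p = 0.0566). Il34 was lower with CPI in cluster 1. It was at 49.1 and 53.4 CPM in isotype, 34.2 and 40.2 CPM in CPI (34 and 30 UMIs from 53 and 27 cells), 50.1 and 52.1 CPM in isotype + ABT-317, and 42.3 and 47.4 CPM in CPI + ABT-317. Both CPI values lay below all others. The log2 fold change for CPI against isotype was -0.62 ± 0.16 (edgeR adjusted p = 0.0482), beside 5.23% of 13917 genes called and 2.86% called lower, and the call was lost without any 1 of the 4 libraries (log2 fold changes of -0.75 to -0.52) and with treatments called by the leading hashtag (-0.51, edgeR adjusted p = 0.150). For CPI + ABT-317 against isotype + ABT-317 it was -0.23 (edgeR adjusted p = 0.310, or 2.77e-05 with the block, which called 3737 of 13917 genes), and it turned to 0.70 among cells with fewer than 2500 genes (edgeR adjusted p = 0.867). Marker lists in cluster 1 moved too, the fibroblast list from 777 and 792 CPM in isotype to 488 and 298 CPM in CPI. The monocyte list went from 766 and 694 CPM to 464 and 414 CPM, and the part of this makeup in the Il34 values was not tested. In cluster 2 Il34 was at 58.2 and 60.6 CPM in isotype + ABT-317 and 53.2 and 58.4 CPM in CPI + ABT-317, which overlapped (log2 fold change -0.07, edgeR adjusted p = 0.680).

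Csf1 was higher in CPI + ABT-317 than in isotype + ABT-317 in cluster 2, at 129.7 and 130.0 CPM against 96.0 and 97.2 CPM, with 74.5 and 79.3 CPM in isotype. The 3 treatments did not overlap. The log2 fold change between the ABT-317 groups was 0.45 ± 0.07 (edgeR adjusted p = 0.0226, with 3.21% of 12847 genes called and 2.26% called higher), and it was lost without any 1 library, at log2 fold changes of 0.43 to 0.46 and edgeR adjusted p of 0.105 to 0.138. Isotype + ABT-317 against isotype gave 0.36 ± 0.07 (edgeR adjusted p = 0.337, or 2.89e-05 with the block), where edgeR called 0 of 12847 genes, with 886 at an unadjusted p under 0.05, 35 called by DESeq2, and 1096 called with the block. The single CPI sum with enough cells, 27 in reaction 1, was at 170 CPM.

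In cluster 1, Csf1 was at 87.0 and 88.9 CPM in isotype, 96.7 and 166 CPM in CPI, 101 and 103.5 CPM in isotype + ABT-317, and 105 and 112 CPM in CPI + ABT-317. The isotype values were the lowest and the CPI reactions lay far apart. CPI against isotype gave a log2 fold change of 0.40 (edgeR adjusted p = 0.239, or 0.0149 with the block), which was -0.03 without CPI reaction 2 and 0.75 without CPI reaction 1 (edgeR adjusted p = 0.0290). Isotype + ABT-317 against isotype gave 0.25 (edgeR adjusted p = 1.00, or 5.33e-07 with the block, which called 1853 of 13917 genes against 3 without it). In cluster 8, the unnamed cluster with the highest Csf1, values were 208 and 147 CPM in isotype, 358 CPM in CPI reaction 1 (37 UMIs in 16 cells), 218 and 222 CPM in isotype + ABT-317, and 295 and 429 CPM in CPI + ABT-317 (against isotype + ABT-317, log2 fold change 0.68 ± 0.25, edgeR adjusted p = 0.681, with 0.158% of 10139 genes called). Cluster 3 had 0 of 7591 genes called by edgeR for CPI against isotype, with 176 at an unadjusted p under 0.05 and 0 by DESeq2, and its Csf1 log2 fold change was 0.25 (edgeR adjusted p = 1.00).

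**Figure D5:**
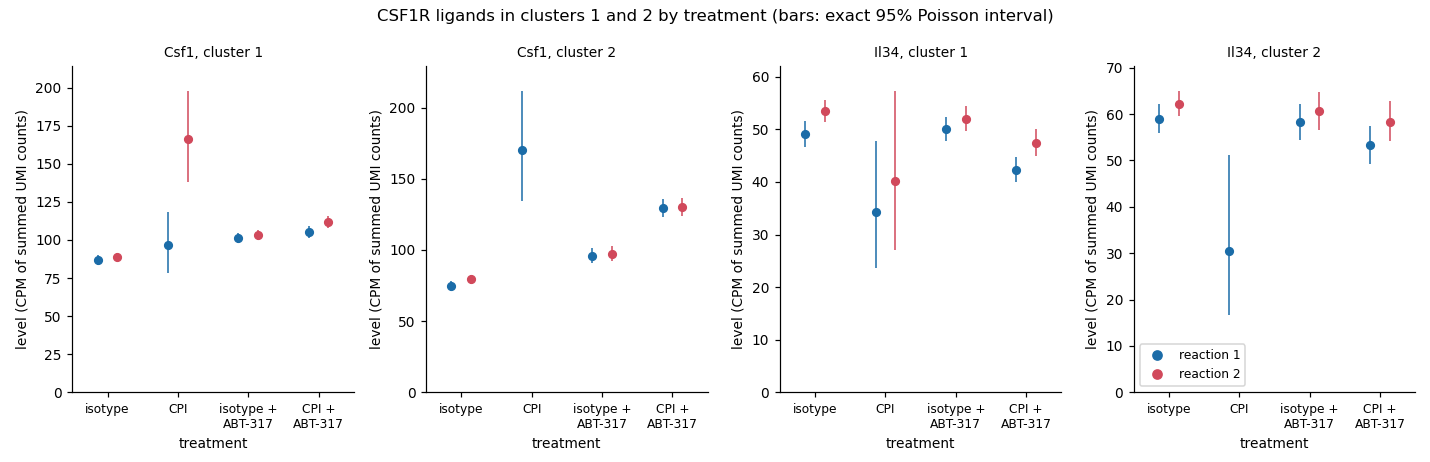
Level (CPM of summed UMI counts, y axis) of Csf1 and Il34 in clusters 1 and 2 by treatment (x axis) in reaction 1 (blue) and reaction 2 (red), with exact 95% Poisson intervals as bars; cluster 2 had too few CPI cells in reaction 2. Csf1 in cluster 2 steps from 74.5 and 79.3 CPM in isotype to 129.7 and 130.0 CPM in CPI + ABT-317, and Il34 in cluster 1 is lowest in CPI.

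Stromal and T cell classes were compared mainly for CPI against isotype, in fits chosen after the cell counts were seen. In fibroblast-like cells Csf1, the ligand, was at 85.4 and 79.0 CPM in isotype (79 and 40 cells) and 109 and 105 CPM in CPI (762 and 499 cells), without overlap (log2 fold change 0.50 ± 0.27, edgeR adjusted p = 0.242). In CPI + ABT-317 (25 and 15 cells) it was at 117 and 31.6 CPM, from 25 and 5 UMIs (against CPI, log2 fold change -0.50 ± 0.35, edgeR adjusted p = 0.431). In that comparison 0 of 4 members tested were called by edgeR or DESeq2 and 0 had an unadjusted p under 0.05, beside 8.95% of 6589 genes called. Csf1r fell from 88.6 and 82.0 CPM to 15.0 and 14.9 CPM (log2 fold change -2.39 ± 0.26, edgeR adjusted p = 1.88e-05, with 15.6% of 6589 genes called and 7.16% called lower). Csf2ra was at 33.2 and 21.3 CPM and then 10.9 and 8.63 CPM (log2 fold change -1.41 ± 0.44, edgeR adjusted p = 0.0366). This call was lost with the block (edgeR adjusted p = 0.0506), with DESeq2 (adjusted p = 0.167), and without CPI reaction 1 or 2 (edgeR adjusted p = 0.244 and 0.416). Macrophage RNA moved the same way in these cells, since the C1q genes went from 2385 and 2774 CPM to 271 and 178 CPM and the macrophage list from 4754 and 5864 CPM to 842 and 816 CPM, and the part of this RNA in the receptor values was not tested. The fibroblast list moved the other way, from 35514.5 and 32060.8 CPM in isotype to 79482.5 and 92514.9 CPM in CPI, and its part in the Csf1 and receptor values was not tested.

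Pericyte or smooth muscle cell-like cells had 116 and 98.4 CPM of Il34 in isotype (12 and 15 UMIs) and 220 and 232 CPM in CPI (62 and 42 UMIs). The treatments did not overlap, but the test was not passed (log2 fold change 0.94 ± 0.32, edgeR adjusted p = 0.323, with 0.536% of 3169 genes called). Csf1r in this class was at 233 and 151 CPM in isotype and 10.7 and 5.52 CPM in CPI (log2 fold change -4.48 ± 0.53, edgeR adjusted p = 0.0321, or 0.0671 with the block), beside C1q genes at 2427 and 4095 CPM and then 402 and 260 CPM. Il34 in fibroblast-like cells was lower in CPI, but it was not called by edgeR there either. It was at 41.1 and 18.2 CPM in isotype (26 and 6 UMIs) and 18.0 and 9.81 CPM in CPI, with log2 fold changes of -1.51 to -0.195 when 1 library was left out. In CD8 T cell-like cells Csf1 was at 249.01 and 215 CPM in isotype, from 6 and 4 UMIs, and 214 and 297 CPM in CPI, which overlapped (log2 fold change 0.19 ± 0.51, edgeR adjusted p = 0.970). In this class edgeR called 0 of 1805 genes, with 115 at an unadjusted p under 0.05 and 1 called by DESeq2.

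Genes that act with the receptors were read from 4 lists in the whole macrophage-like cluster for CPI against isotype. The 17 genes tested from the CSF1R signaling and macrophage list had a median log2 fold change of 0.11, beside -0.09 over all genes, and 0 of them fell. Among those that rose were Sdc1 (3.45), a surface proteoglycan, Egr2 (2.40), a transcription factor of activated macrophages, Runx1 (1.07), a hematopoietic factor, and Syk (1.02), a kinase downstream of immune receptors, with edgeR adjusted p of 0.000292 to 0.00941. Of 15 genes of the GM-CSF receptor signaling and target list, 5 rose and 0 fell, with a median of 0.65. They were Ccl22 (3.52), a chemokine that is also a mature regulatory DC marker, the STAT5-induced feedback genes Cish (2.87) and Socs1 (2.17), Bhlhe40 (1.28), and Jak2 (0.88), the kinase bound to the beta chain, with edgeR adjusted p of 0.00633 to 0.0471. The inducers of colony-stimulating factors had 2 of 11 higher and 0 lower, namely Nfkb1 (0.96) and Il1b (0.83), with a median of 0.42. The 4 tested genes of the G-CSF list had a median of 0.46, with 0 called by edgeR or DESeq2 and 1 at an unadjusted p under 0.05. These log2 fold changes are read beside the 3.7% of all genes called higher. Sub-cluster 0 alone again called Cish (3.25), Socs1 (2.52), Egr2 (1.61), Syk (1.03), and Runx1 (1.02) higher by edgeR, and Fos (-0.87), an immediate early gene, lower. Sdc1, Ccl22, Bhlhe40, Jak2, Nfkb1, and Il1b were not called there.

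After ABT-317, some of these genes were lower in the whole macrophage-like cluster. The makeup differed there too, with a macrophage list of 12923 and 14680 CPM in CPI and 18298 and 24511.5 CPM in CPI + ABT-317. Median UMIs were 1404.5 and 1959 in CPI and 3635 and 4292 in CPI + ABT-317, and the part of makeup and depth in these genes was not tested. For CPI + ABT-317 against CPI, Egr2 (log2 fold change -1.42, edgeR adjusted p = 0.0312), Runx1 (-0.86, edgeR adjusted p = 0.0323), Il1b (-0.85, edgeR adjusted p = 0.0371), and Nfkb1 (-0.70, edgeR adjusted p = 0.0448) fell. In this comparison 1.87% of 9291 genes were called. The 15 genes of the GM-CSF list had a median of -0.23 there, with 0 called by edgeR, 6 at an unadjusted p under 0.05, and 1 called by DESeq2. Egr2, Runx1, Il1b, and Nfkb1 were not called by edgeR for this comparison in sub-cluster 0 alone. For CPI + ABT-317 against isotype + ABT-317, Sdc1 (2.50) and Socs1 (2.49) rose and Maf (-0.98), a macrophage transcription factor, fell, with edgeR adjusted p of 0.00193 to 0.0320. There 1.86% of all genes were called.

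In cluster 1, CPI against isotype called Irf5 (log2 fold change 2.37), Cebpb (1.05), Nfkb1 (0.95), Mmp9 (0.84), and Rela (0.77) higher and Bhlhe40 (-1.18) lower by edgeR. Of all 13917 genes tested there, 5.23% were called. For CPI + ABT-317 against CPI the reverse was called for Bhlhe40 (0.96, edgeR adjusted p = 0.0349) and Cebpb (-0.55, edgeR adjusted p = 0.0410), beside 1.8% of all genes. Nfkb1 and Rela encode subunits of NF-kB, a factor that induces colony-stimulating factor genes. Between the ABT-317 groups, Nfkb1 (0.81 and 0.86), Nfatc1 (1.07 and 1.22), a calcium-regulated factor, and Socs1 (0.91 and 0.58) rose in clusters 1 and 2. Of all genes, 1.71% and 3.21% were called there.

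The genes whose levels over the 13 named classes were most like those of each member are given as descriptions, from Pearson's r of log2(CPM + 1) among 12984 genes, and classes of the same reactions and depths share their background. For Csf1r they were Cd14 (0.983), Pid1 (0.972), and Nlrp3 (0.969), and for Csf2ra they were Gm34084 (0.962), Aif1 (0.955), and Ncf1 (0.953). For Csf2rb they were Syk (0.936), Clec7a (0.934), and H2-Ab1 (0.898). For Csf3r they were Slpi (0.971), Gm15832 (0.962), and Ptgs2os2 (0.952). Among the ligands, Csf1 was most like Sox9 (0.931), Ttll4 (0.919), and Cplane1 (0.898), and Il34 most like Pawr (0.914), Arhgap42 (0.899), and Il1r1 (0.897). The genes nearest to Csf2 (Podnl1, 0.995) and Csf3 (Fpr3, 0.998) rest on few UMIs, since Csf2 and Csf3 had 122 and 117 UMIs in all. The peaks of Sox9 and Ttll4 were low, at 46.4 CPM in conventional CD4 T cell-like cells and 17.6 CPM in CD8 T cell-like cells. Syk peaked in the plasma cell-like class of 8 cells, so small counts bear on these likenesses too.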

How the data were processed

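The authors deposited, for each of 2 MC38 tumor reactions made with a 10x 5′ kit, raw UMI counts per gene and per antibody, with no normalization. The matrix headers name Cell Ranger 8.0.1, and the submitters' processing notes name Cell Ranger 3.1.0 and GRCm38. The 3 lymph node reactions of the series were not used. A deposited key pairs hashtags with treatments.

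Barcodes with at least 200 genes and under 10% mitochondrial counts numbered 33762 and 23332. Hashtags were read on all of these, and the 3853 and 2737 of them called as doublets (Scrublet in scanpy 1.11.5, Python 3.11.15) were removed afterwards. No upper limit on genes was set, and an upper limit of 2500 genes was an alternative. Each hashtag was split into lower and upper components on its log counts, and cells over the posterior of 0.5 for exactly 1 treatment were used. Summed UMIs of these cells were 205707439 and 210092762. All barcodes that passed the filters, with doublets and any number of hashtags, were clustered on 30 components of 2000 variable genes (15 neighbors, Leiden resolution 0.5). The members and Csf2rb2 took no part. A class needed at least 3 markers at 1.5 times their level elsewhere.

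Levels (CPM) are summed UMIs scaled to 1000000 UMIs of all genes. Intervals are exact Poisson or binomial, at 95%, and cover counting error only, and a count of 0 allows up to 3 counts. Shares of cells were also taken after thinning to 1000 UMIs, leaving out shallower cells. Csf1 and the other members had 117 to 38816 UMIs in the cells used.

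Sums per treatment and reaction within a class were tested with edgeR 4.0.16 (R 4.3.3; TMM, filterByExpr, quasi-likelihood), with DESeq2 1.42.0 as an alternative, and genes at adjusted p under 0.05 were called. Other classes and sub-cluster 0 were fitted where both reactions had 10 cells, a choice made after the cell counts were seen. Since each reaction pools all treatments, its number marks a shared batch, and deviations of sums of the same reaction correlated at 0.128 to 0.486 in the whole macrophage-like cluster, 0.0661 to 0.450 in cluster 1, and 0.348 to 0.445 in cluster 2. Values with the reaction as a block are given where they change a call. The scripts were tested on simulated data for the whole macrophage-like cluster (9291 genes), where log2 changes of 1 and 2 were recovered for 6% and 50% of 100 genes each, and for CD8 T cell-like cells (1805 genes), where 5% and 30% were recovered. Named genes are the members, Csf2rb2, called genes of the lists (1 gene of these is not reported here), and the 3 genes most like each member (at least 10 CPM in a class). The members and lists were chosen with earlier results of these data known.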

Additional observations from a re-analysis of the deposited data

How the results depend on the processing

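The limits are the small CPI samples, the hashtags, and few libraries. Over the 3 whole clusters with all treatments, edgeR called 2 member tests for CPI against isotype, and this was 1 with RLE size factors, with fewer than 2500 genes per cell, with a background-scaled hashtag lead (added after seeing the data), and at Leiden resolution 1.0. It was 0 with a hashtag lead of 1 natural log unit, and it ranged from 0 to 2 when 1 library was left out (2 without CPI replicate 1, where Csf1 in cluster 1 was called and Il34 was not). For CPI + ABT-317 against CPI it was 0, and 1 with DESeq2 or with the replicate block. For isotype + ABT-317 against isotype it was 0, and 1 with the block, and for CPI + ABT-317 against isotype + ABT-317 it was 0, and 2 with the block or with no filter on low counts (Csf2 in cluster 1, and Csf2rb in the whole macrophage-like cluster at a log2 fold change of 0.76 and edgeR adjusted p = 0.0210). The block raised the called genes in every comparison of the whole macrophage-like cluster and of clusters 1 and 2. In cluster 1 this was from 3 to 1853 for isotype + ABT-317 against isotype and from 238 to 3737 for CPI + ABT-317 against isotype + ABT-317. In cluster 2 the same comparisons went from 0 to 1096 and from 413 to 3528, and in cluster 1 CPI against isotype went from 728 to 1899. The block changed no member call other than those given with the results.

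The log2 fold change of Csf2rb for isotype + ABT-317 against isotype was near 0 and turned sign in the whole macrophage-like cluster, at 0.0101 with DESeq2, 0.00568 with RLE size factors, 0.0682 with fewer than 2500 genes, 0.0035 with doublets kept, 0.0031 at resolution 1.0, and, with 1 library left out, from -0.34 to 0.29 (0.05 without isotype replicate 2), and 0.56 within sub-cluster 0. Csf2ra there for CPI against isotype was 0.0027 with the background-scaled lead. In cluster 1, Il34 for CPI + ABT-317 against isotype + ABT-317 was 0.70 with fewer than 2500 genes, and Csf1 for CPI against isotype ranged from -0.0325 to 0.75 with 1 library left out, the first without CPI replicate 2.

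Of the levels (mean of both reactions), Csf1 in CD8 T cell-like cells (246 CPM) was 335 at resolution 1.0, and Csf2 in conventional CD4 T cell-like cells (78.8 CPM) was 226 with the hashtag lead and 194 at resolution 1.0. Il34 in pericyte or smooth muscle cell-like cells (182 CPM) was 239 with fewer than 2500 genes, 131 with the hashtag lead, 136 with doublets kept, and 249.7 as a mean over cells. Csf1r in macrophage-like cells (442 CPM) was 449, 454, and 456 with fewer than 2500 genes, at resolution 1.0, and as a mean over cells. Csf2ra in neutrophil-like cells (185 CPM) was 173, 179.7, 68.2, and 186 with fewer than 2500 genes, with the hashtag lead, at resolution 1.0, and as a mean over cells. Csf2rb in cDC2-like cells (204 CPM) was 235 with fewer than 2500 genes and 159.96 with the hashtag lead, and Csf3r in neutrophil-like cells (171 CPM) was 410.0 as a mean over cells. The share of Csf2 UMIs from cluster 1 (25.1%) was 14.2% with any number of hashtags. The cause was not tested for any of these. CD8 T cell-like cells could not be fitted with either hashtag lead or at resolution 1.0.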
